A study of Mus musculus with 6 samples.

Results

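Microglia genes are the 36 genes below, chosen by symbol because they are enriched in microglia, the resident macrophages of the brain. All 36 were found among the 54429 rows of every count table, and all 36 had enough counts to be tested, among 24419 tested genes. Every member had reads in every library, from Ctss at 128.8 to 253.9 CPM (read counts scaled to the size of the library, with TMM factors that even out composition) down to Ltc4s at 0.882 to 2.47 CPM. The defining microglia markers were thus present, in tissue that is mostly other cells: the 36 members took 0.102% to 0.151% of all counts of a library.

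The libraries came from bulk prefrontal cortex of mice aged 6 to 8 weeks, all injected with AAV9, an adeno-associated virus. In 3 libraries the virus carried GFP (green fluorescent protein) and in 3 it carried a short hairpin RNA (shRNA) against Kmt5b, a methyltransferase for histone H4 lysine 20 (called shRNA libraries). For the strain, the sample label reads C57BL6/J, but a C57BL/6 x C3H cross stands in the design text, which counts 3 shRNA mice and 2 GFP mice. The protocol speaks of duplicates in each group, and whether 2 GFP libraries come from 1 mouse could not be worked out. Each n counts libraries, which may exceed the mice, and each p-value reflects the spread among these libraries alone. The promoter of each virus is not given in the sources used here, and both groups had been injected, so neither shows microglia of untouched cortex. Kmt5b itself was at 86.5, 79.7 and 80.9 CPM in the GFP and 68.5, 80.3 and 63.9 CPM in the shRNA libraries. These ranges overlapped and the difference did not pass (log2 fold change -0.22 ± 0.10 SE, adjusted p = 0.303 by edgeR), so directions rest on the labels. Libraries held 29490771 to 74723284 counts.

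Microglia survey the tissue with fine processes, take up debris and synapses, and depend on signalling through the CSF1 receptor. In healthy cortex they carry a homeostatic set of receptors and surface proteins, among them P2RY12, TMEM119 and CX3CR1, which is known to fall when microglia turn reactive, while phagocytic receptors, their signalling adaptors and lysosomal proteases are known to rise. The comparison set 14 homeostatic members against 13 activation members, and 9 members belonged to neither class. Homeostatic members were Cx3cr1, P2ry12, P2ry13, Tmem119, Csf1r, Sall1, Siglech, Fcrls, Olfml3, Gpr34, Selplg, Slc2a5, Ltc4s and the uptake receptor Mertk. Activation members were P2ry6, Trem2, Tyrobp, Aif1, Itgam, Cd68, Cd53, Ctss, Lgmn, Ly86, Fcer1g, Fcgr3 and Cd84. In neither class were Laptm5, Ptprc, Irf8, Spi1, Inpp5d, Cd33, Bin2, Apbb1ip and Cyth4. The classes were chosen with earlier results of these data known. Some members are also made elsewhere: Mertk in astrocytes, Ptprc, Cd53, Itgam and Spi1 in blood leukocytes. In bulk tissue, fewer cells of a type and less RNA per cell cannot be told apart.

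PU.1, the protein of the member gene Spi1, is the lineage factor of microglia and macrophages and binds purine-rich DNA around GAGGAA. The promoter windows from RefSeq (build GRCm38.p6, from 250 bases before to 50 after the start site) covered 28 of the 36 members. The letters GAGGAA, on either strand, were in a window of 18 of these 28 (64.3%) and in 31.3% of 27025 genes with a window. They were found in 4 of 10 homeostatic, 8 of 11 activation and 6 of 7 remaining members. The longer GAGGAAGT, which holds the shorter one, was in 5 of 28 members (17.9%) against 3.69% of all genes, with 0 of 10 homeostatic members among them. A match is a description of the letters, not a bound site. The windows of 4 members are printed on the strand of the gene, with GAGGAA or its reverse complement in capitals. Fcrls was the member that passed the test below, Olfml3 had the largest fold change, and Trem2 and Ctss stand for the activation members. The windows lie at chr3:87263475-87263774 (minus strand) for Fcrls, chr3:103737952-103738251 (minus strand) for Olfml3, chr17:48346151-48346450 (plus strand) for Trem2 and chr3:95526536-95526835 (plus strand) for Ctss.
Fcrls: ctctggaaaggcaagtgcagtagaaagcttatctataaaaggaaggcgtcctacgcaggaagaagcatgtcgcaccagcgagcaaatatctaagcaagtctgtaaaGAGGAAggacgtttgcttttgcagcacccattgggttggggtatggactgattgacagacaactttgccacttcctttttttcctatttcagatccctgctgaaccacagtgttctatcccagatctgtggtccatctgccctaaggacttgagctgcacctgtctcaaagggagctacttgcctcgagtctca
Olfml3: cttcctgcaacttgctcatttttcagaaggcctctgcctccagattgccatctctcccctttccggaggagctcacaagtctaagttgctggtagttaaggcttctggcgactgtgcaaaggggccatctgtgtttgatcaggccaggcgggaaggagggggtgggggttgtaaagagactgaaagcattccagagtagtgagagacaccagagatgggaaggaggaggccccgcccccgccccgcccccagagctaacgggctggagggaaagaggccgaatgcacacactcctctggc
Trem2: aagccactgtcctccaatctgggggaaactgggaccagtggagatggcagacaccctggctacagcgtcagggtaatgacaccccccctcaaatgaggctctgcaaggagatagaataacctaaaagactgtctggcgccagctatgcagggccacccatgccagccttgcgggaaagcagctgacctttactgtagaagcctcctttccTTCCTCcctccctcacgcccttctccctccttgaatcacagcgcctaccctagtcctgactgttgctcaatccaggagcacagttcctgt
Ctss: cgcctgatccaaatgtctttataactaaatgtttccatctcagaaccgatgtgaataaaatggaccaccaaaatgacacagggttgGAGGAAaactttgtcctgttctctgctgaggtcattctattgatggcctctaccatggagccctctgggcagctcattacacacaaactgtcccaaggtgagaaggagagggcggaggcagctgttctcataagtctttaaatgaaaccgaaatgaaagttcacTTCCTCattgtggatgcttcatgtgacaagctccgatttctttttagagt
Ctss had GAGGAA at its start site and again upstream, Fcrls and Trem2 had it once upstream, and the Olfml3 window held none.

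One microglia gene, Fcrls, was higher in the shRNA libraries, and no member was lower. The homeostatic members other than Fcrls, and all activation members, did not pass. Of 36 members, 1 was called higher (2.78%) and 0 lower at an edgeR quasi-likelihood adjusted p under 0.05, against 2.77% and 5.69% of all genes tested (8.46% in either direction). At an unadjusted p under 0.05, 3 members were higher (Fcrls, Gpr34 and Olfml3) and 1 was lower (Mertk), 11.1% in all against 17.4% of all genes. DESeq2 also called 1 higher and 0 lower, against 2.06% and 4.03% of the 39024 genes it tested without a filter on low counts. Blocked on replicate number, edgeR had 1 member higher (Fcrls) and 1 lower (Ptprc), against 2.88% and 6.17% of all genes. Among protein-coding genes without long matches to others 1 of 32 members was higher and 0 lower, against 0.633% and 0.291% of 11695 genes. The median log2 fold change was -0.05 over the members and -0.02 over all genes tested, with 14 members above 0 and 22 below.

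**Figure D1:**
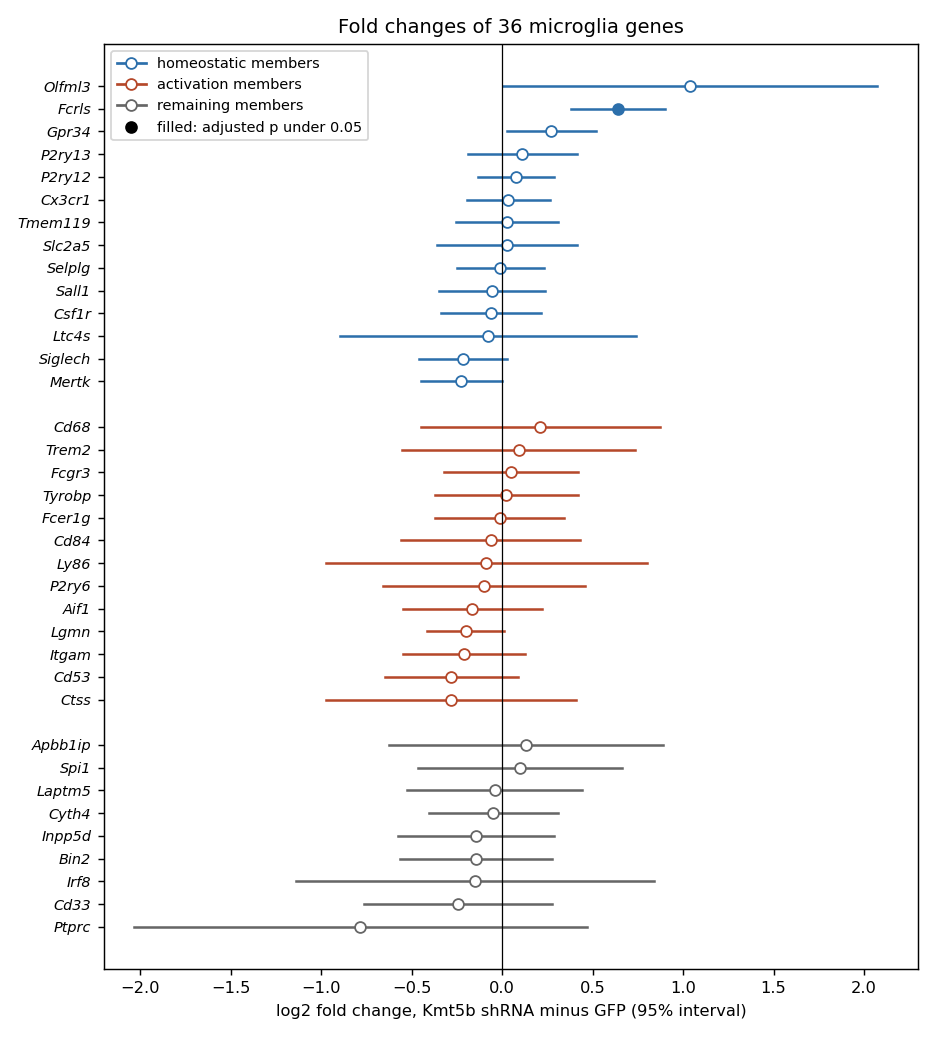
Log2 fold change of each of the 36 microglia genes, shRNA minus GFP, as a point with its 95% interval from the edgeR fit of all genes (3 libraries a group), ordered by class. Fcrls is the filled point, at 0.64 with an interval from 0.38 to 0.90, and of the others the intervals of Olfml3, Gpr34 and Mertk leave out 0 although none of these passed the adjusted test.

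Among the proteins that mark microglia at the surface or are secreted by them, Fcrls stood apart. It encodes Fc receptor-like S, a scavenger receptor that in mouse brain is typical of microglia, and lies on chromosome 3 from 87250758 to 87263738 (GRCm38, minus strand). Fcrls was at 27.5, 20.3 and 20.7 CPM in GFP replicates 1, 2 and 3 and at 34.9, 35.3 and 36.8 CPM in shRNA replicates 1, 2 and 3. The lowest shRNA library was above the highest GFP library. The means were 22.8 ± 4.06 and 35.7 ± 1.00 CPM (SD, n = 3 each). On the log2 scale this was 0.64 ± 0.12 higher (SE), with an adjusted p of 0.00195 by edgeR. An exact permutation test, two-sided, gave p = 0.1, the smallest that 3 against 3 libraries can give. Fcrls passed with each of the 6 libraries left out in turn, with log2 fold changes from 0.57 to 0.80 and adjusted p up to 0.0156. Its transcript had no match of 200 nucleotides to another protein-coding gene or pseudogene. Among 11695 such protein-coding genes fitted alone, 0.633% were called higher. In that fit the log2 fold change of Fcrls was 0.64 (edgeR adjusted p = 0.0280).

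Olfml3, an olfactomedin-like secreted protein of the matrix, had the largest fold change of the members and did not pass. It was at 27.6, 22.9 and 10.4 CPM in GFP replicates 1, 2 and 3 and at 41.3, 36.1 and 47.1 CPM in the shRNA libraries. The groups did not overlap, and GFP replicate 3 was far below the other GFP libraries. The log2 fold change was 1.04 ± 0.395 (SE), with a 95% interval from 0.005 to 2.07 and an edgeR adjusted p of 0.285. Without GFP replicate 3 it was 0.72 and passed (adjusted p = 0.00311), with any other library left out it did not.

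The other 5 proteins of this role did not pass. Tmem119, a membrane protein found in microglia and not in most other brain cells, was at 27.9, 38.7 and 35.7 CPM in the GFP and 36.7, 29.5 and 37.8 CPM in the shRNA libraries. The groups overlapped, with a log2 fold change of 0.03 (95% interval -0.26 to 0.31, edgeR adjusted p = 0.958). Siglech, a sialic acid-binding lectin, was at 21.8, 24.0 and 27.1 CPM against 19.5, 20 and 23.2 CPM, a log2 fold change of -0.22 (interval -0.46 to 0.03, adjusted p = 0.374). Selplg, the ligand of P-selectin, had a log2 fold change of -0.01, the fructose transporter Slc2a5 0.03 and the leukotriene synthase Ltc4s, the least abundant member in CPM, -0.08.

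The receptors by which microglia sense nucleotides, chemokines and lipids did not pass. Cx3cr1, the receptor of the neuronal chemokine fractalkine, was at 72.9, 88.9 and 83.4 CPM in the GFP and 78.9, 78.1 and 94.1 CPM in the shRNA libraries. P2ry12, the ADP receptor that draws microglial processes to injury, was at 41.3, 47.7 and 45.4 against 45.2, 50.1 and 46.3 CPM. The groups overlapped for both, with log2 fold changes of 0.04 (95% interval -0.20 to 0.27) for Cx3cr1 and 0.08 (-0.13 to 0.29) for P2ry12. Gpr34, a lysophosphatidylserine receptor, was at 13.9, 15.2 and 16.9 against 17.7, 18.3 and 19.5 CPM. Its groups did not overlap, but its log2 fold change of 0.27 ± 0.12 (SE) missed the threshold (edgeR adjusted p = 0.222). Groups that did not overlap, with shRNA above GFP, were seen for 3 of 36 members (8.33%), Fcrls, Olfml3 and Gpr34, against 9.84% of all genes, and with shRNA below GFP for 0 of 36 against 12.7%. Among genes without long matches these were 3 and 0 of 32 members, against 10.6% and 9.67% of the genes. The ADP receptor P2ry13 had a log2 fold change of 0.11 and the UDP receptor P2ry6, counted with the activation members, -0.10.

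**Figure D2:**
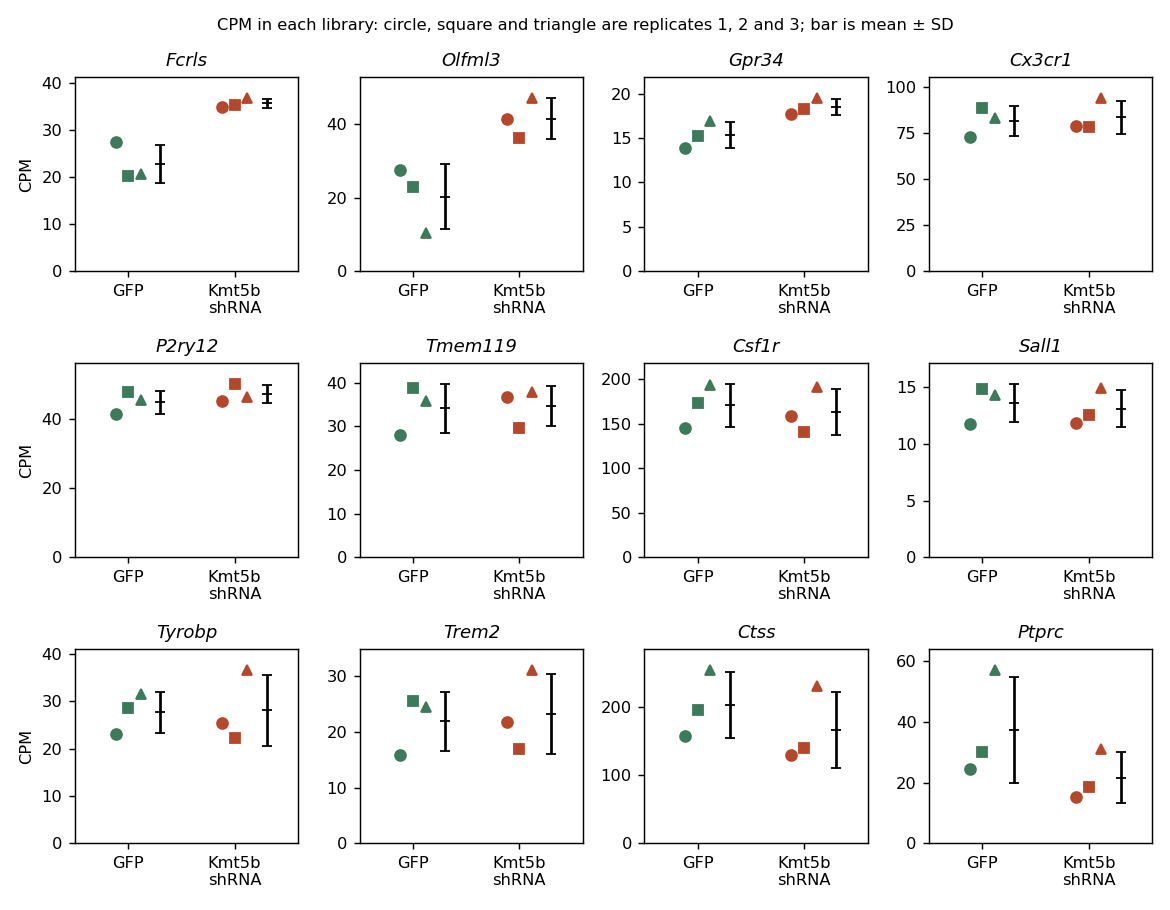
CPM of 12 microglia genes in each of 3 GFP (green) and 3 shRNA (red) libraries, with the group mean ± SD as a bar beside the points and axes from 0. Fcrls, Olfml3 and Gpr34 are separated between the groups, and the other 9 genes overlap.

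The growth factor receptor and the lineage factors did not pass either. Csf1r, the receptor for CSF1 and IL-34 on which microglia depend, was at 145.0, 173.8 and 193.1 CPM in the GFP and 158.6, 140.9 and 191.6 CPM in the shRNA libraries. Its log2 fold change was -0.06 (95% interval -0.34 to 0.22). Its exons overlap those of Hmgxb3 on the other strand, and whether counting used strand is not given in the sources used here. Exons of P2ry12, Cx3cr1 and Ltc4s likewise overlap those of Med12l, Gm33858 and Gm26542, and Selplg has matches of at least 200 nucleotides to several genes, so the values of these 5 are uncertain to that extent. Sall1, a transcription factor that keeps microglia distinct from other macrophages, was at 11.7, 14.8 and 14.3 against 11.8, 12.5 and 14.9 CPM. Both ranges overlapped almost fully. Spi1 was at 3.89, 4.07 and 5.74 against 4.55, 3.21 and 6.93 CPM, and Irf8, the interferon regulatory factor that pairs with PU.1, at 11.7, 14.3 and 25.6 against 10.9, 15.3 and 20.6 CPM. For Spi1 and Irf8 replicate 3 was the highest library of each group. None of these 4 passed, with edgeR adjusted p from 0.891 to 0.918.

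Signalling adaptors, phagocytic receptors and their inhibitors did not pass the test, in any of 9 genes. Trem2, the lipid receptor that marks phagocytic microglia, was at 15.8, 25.5 and 24.4 CPM in the GFP and 21.7, 16.9 and 31.1 CPM in the shRNA libraries, a log2 fold change of 0.09 with a 95% interval from -0.55 to 0.74. Its partner Tyrobp, the ITAM adaptor DAP12, was at 23.0, 28.6 and 31.5 against 25.5, 22.3 and 36.6 CPM, a log2 fold change of 0.02 (-0.37 to 0.42). Each gene spread more within the shRNA libraries than between the groups. Itgam, the integrin chain CD11b of complement receptor 3, was at 8.36, 9.99 and 10.7 against 7.94, 7.29 and 9.81 CPM, with a log2 fold change of -0.21. Its values are uncertain because 3453 nucleotides of its transcript match the overlapping gene model Gm49368. Mertk, a receptor tyrosine kinase for uptake of dying cells, was at 47.6, 45.4 and 49.7 against 46.0, 38.0 and 38.1 CPM, a log2 fold change of -0.225 ± 0.10 (SE, edgeR adjusted p = 0.276). One of its shRNA libraries lay within the GFP range. The other 5 genes were the adaptor Fcer1g (-0.01), the IgG receptor Fcgr3 (0.05), which shares 509 nucleotides with Fcgr2b, the inhibitory lectin Cd33 (-0.25), the adhesion receptor Cd84 (-0.06) and the phosphatase Inpp5d (-0.14), as log2 fold changes.

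The lysosomal genes ranged from the most abundant member in mean CPM, Ctss, to Cd68 among the lower ones, and none passed. Ctss, the protease cathepsin S, was at 157.6, 196.0 and 253.9 CPM in the GFP and 128.8, 139.8 and 230.1 CPM in the shRNA libraries, a log2 fold change of -0.285 ± 0.28 (SE, edgeR adjusted p = 0.730). Lgmn, the lysosomal protease legumain, was at 159.2, 173.1 and 178.7 against 138.7, 143.7 and 161.8 CPM, a log2 fold change of -0.20 ± 0.10 (SE, adjusted p = 0.323). The groups overlapped through the third replicate of the shRNA group for both. Cd68, a lysosomal membrane protein used as a stain for phagocytic cells, was at 7.15, 13.9 and 11.4 against 11.9, 8.93 and 16.5 CPM, a log2 fold change of 0.21. Laptm5, a lysosomal membrane protein of blood cells, had -0.04.

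Genes shared with other leukocytes included the member with the widest interval, and 0 of these 7 passed without a block. Ptprc, the pan-leukocyte phosphatase CD45, was at 24.4, 30.2 and 57.0 CPM in the GFP and 15.4, 18.4 and 31.1 CPM in the shRNA libraries. GFP replicate 3 was the highest by far, and the log2 fold change was -0.78 ± 0.47 (SE) with a 95% interval from -2.03 to 0.47 and an edgeR adjusted p of 0.534. Only with the replicate number as a block did Ptprc pass (-0.75, adjusted p = 0.000218). Aif1, the actin-binding protein IBA1 used to stain microglia, was at 10.8, 12.1 and 14.8 against 8.72, 10.6 and 14.4 CPM, a log2 fold change of -0.16. The tetraspanin Cd53, at 13.5, 18.7 and 20.1 against 12.4, 12.8 and 17.7 CPM, had -0.28 (adjusted p = 0.462). Ly86, the membrane-linked protein MD-1, had -0.09, Bin2 -0.14, Cyth4 -0.05 and Apbb1ip 0.13 as log2 fold changes.

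The homeostatic members lay slightly above the activation members in median fold change, by 0.115, and the ratio of the classes overlapped between the groups. The difference of the medians turned to -0.06 without shRNA replicate 1 and was 0.01 without GFP replicate 3. Over the 14 homeostatic members the median log2 fold change was 0.03, with 8 above and 6 below 0, and 1 was called higher and 0 lower. The 13 activation members had a median of -0.09, with 4 above and 9 below 0, and 0 were called by edgeR, 0 passed an unadjusted p of 0.05 and 0 were called by DESeq2. The 9 remaining members had a median of -0.14, with 0 called by either tool. Summed over the homeostatic members, the GFP libraries held 487.1, 551.9 and 558.1 CPM and the shRNA libraries 550.7, 510.3 and 612.3 CPM. The activation members summed to 454.8, 552.8 and 636.7 against 413.4, 429.0 and 615.5 CPM. The ratio of the second sum to the first was 0.934, 1.002 and 1.141 in the GFP and 0.751, 0.841 and 1.005 in the shRNA libraries, 1.03 ± 0.106 against 0.866 ± 0.129 (SD, n = 3 each). Abundant genes such as Ctss weigh most in these sums. With every gene weighted equally, by geometric means, the ratio was 0.924 ± 0.144 in the GFP and 0.796 ± 0.150 in the shRNA libraries, and without Fcrls and Olfml3 0.908 ± 0.0915 against 0.859 ± 0.163.

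Set against the other homeostatic genes of the same library, Fcrls, Olfml3 and Gpr34 still separated the groups. Fcrls was 1.409, 0.820 and 0.882 times the geometric mean of the 12 homeostatic members other than Fcrls and Olfml3 in the GFP libraries, and 1.535, 1.719 and 1.519 times in the shRNA libraries. Olfml3 was 1.413, 0.923 and 0.445 times against 1.820, 1.759 and 1.945 times that mean. The mean itself was 19.5, 24.8 and 23.4 against 22.7, 20.5 and 24.2 CPM, and overlapped. Gpr34 was 0.691, 0.585 and 0.698 times against 0.762, 0.88 and 0.789 times the geometric mean of the same members other than Gpr34. These ratios were formed after the values of these genes were seen and are given without a test. GFP replicate 1 was the GFP library nearest to the shRNA libraries in the ratios of Fcrls and Olfml3.

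**Figure D3:**
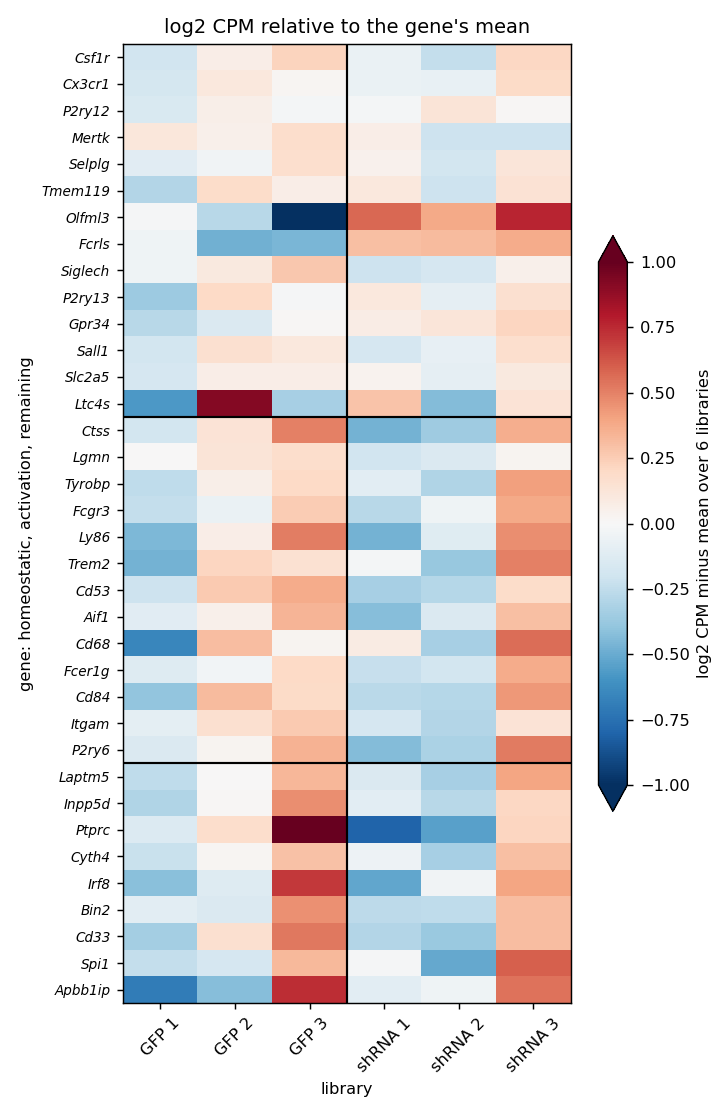
Log2 CPM of each of the 36 members in each library, minus the mean of the gene over the 6 libraries, with homeostatic, activation and remaining members from top to bottom. Activation and remaining members are mostly red in replicate 3 of both groups, while Olfml3 and Fcrls are blue in GFP replicates 2 and 3 and red in the 3 shRNA libraries.

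Libraries of one group also differed from each other. Replicate 3 was the highest GFP library for 24 of 36 members and the highest shRNA library for 33 of 36. Both held for 23 members, among them 10 of 13 activation, 4 of 14 homeostatic and all 9 remaining members. GFP replicate 1 was the lowest GFP library for 32 members. All members together summed to 1080.7, 1271.9 and 1439.9 CPM in the GFP and 1102.4, 1072.1 and 1433.8 CPM in the shRNA libraries, so the highest and lowest totals of each group were further apart than the group means of 1264.1 and 1202.8 CPM. The medians of the classes moved with these libraries. The activation median was -0.33 without shRNA replicate 3, -0.25 without GFP replicate 1 and 0.08 without shRNA replicate 1. The homeostatic median was 0.12 without GFP replicate 2 and -0.06 without GFP replicate 1.

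Levels per kilobase of exon, in CPM averaged over the 6 libraries, ran from Ctss (135.8) through Lgmn (68.5), Tyrobp (41.8) and Csf1r (29.0) to Cx3cr1 (18.4) and P2ry12 (18.1). The libraries ranged from 94.9 to 187.0 for Ctss and from 59.7 to 76.9 for Lgmn on this scale, so these neighbours were separated. Cx3cr1, at 16.2 to 20.9, and P2ry12, at 16.2 to 19.7, were not. Fcrls (12.5) lay close to Fcer1g (12.6), in the upper part of the order. The lowest were Apbb1ip (0.390), P2ry6 (1.24), Slc2a5 (1.36), Ltc4s (1.38) and Cd33 (1.41).

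Fcrls and Olfml3 both lie on chromosome 3, Olfml3 from 103722222 to 103738001. The other members there are P2ry12, P2ry13, Ctss and Cd53, and none of these passed. Within 1 Mb of Fcrls, 24 other genes were tested, with 1 higher (the intermediate filament gene Nes, log2 fold change 0.44), 0 lower and a median of -0.02. Within 1 Mb of Olfml3, 20 were tested, with 1 higher (the GTPase gene Nras, 0.42), 1 lower (the gene model Atg4a-ps, -2.75) and a median of -0.07. Over all genes tested, 2.77% were higher and 5.69% lower. Atg4a-ps was at low levels, with means of 0.987 CPM in the GFP and 0.147 CPM in the shRNA libraries. These neighbours were looked up after the 2 members had been seen to differ.

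Other genes of microglia were read from the same fit, in which 2.77% of all genes were higher and 5.69% lower. Of 59 further microglia genes, 1 was higher and 1 lower by edgeR and 1 higher and 2 lower by DESeq2, with a median of -0.105. The higher one was Sparc, a matrix protein also made by astrocytes and endothelium, which averaged 138.4 ± 17.0 CPM with GFP and 211.2 ± 32.5 CPM with the shRNA (SD, n = 3 each). Sparc passed with any library left out. Its log2 fold change was 0.61 ± 0.12 (edgeR adjusted p = 0.00374, and 0.0675 in the fit of genes without long matches). The lower one was the cation channel Trpm2, at -0.37 ± 0.09 (edgeR adjusted p = 0.0207, and 0.0568 in that fit), which lost its call without GFP replicate 2 (0.0785), shRNA replicate 1 (0.113) or shRNA replicate 3 (0.101). C1qa, a complement chain made by microglia and chosen after its values were seen, had a log2 fold change of -0.19 and did not pass.

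Of 35 genes reported to rise in disease-associated microglia, 3 were higher and 1 lower by edgeR and 4 higher and 2 lower by DESeq2, with a median of 0.02. The edgeR shares were 8.57% higher and 2.86% lower, against 2.77% and 5.69% of all genes. Lyz2, the lysozyme of myeloid cells, was at 43.2, 72.4 and 61.4 CPM in the GFP and 24.5, 24.4 and 39.8 CPM in the shRNA libraries. Its groups did not overlap, and its log2 fold change of -0.995 was called by DESeq2 (adjusted p = 1.04e-05) and not by edgeR (0.0918). With 1 library left out, Lyz2 passed in 2 of 6 edgeR fits, with an adjusted p up to 0.302 without shRNA replicate 2. Lyz2 is not among the genes without long matches. Lpl, a lipase that neurons and other cells also make, was higher by 0.98 ± 0.13 on the log2 scale (edgeR adjusted p = 8.37e-05) and passed with any library left out. The chemokine Ccl4 was higher by 1.68 ± 0.43, at 0.354 ± 0.0831 CPM in the GFP and 1.16 ± 0.614 CPM in the shRNA libraries (SD, n = 3 each, edgeR adjusted p = 0.0206). It lost its call when GFP replicate 2 (0.0852) or 3 (0.0593), or shRNA replicate 1 (0.0561) or 3 (0.154), was left out, and in the fit of genes without long matches (0.113). The tetraspanin Cd63, with 0.53 (adjusted p = 0.0253), had 0.015 (adjusted p = 0.981) once the counts of its intronless copies were added, and its adjusted p was 0.0634, 0.107, 0.0747 and 0.112 without GFP replicate 1, GFP replicate 2, shRNA replicate 1 and shRNA replicate 3. The lower gene was Serpine2, a protease inhibitor of astrocytes and neurons, at -0.38 (adjusted p = 0.0339), which was lost without GFP replicate 2 (0.156) or shRNA replicates 1, 2 and 3 in turn (0.123, 0.0664 and 0.128). Among the genes of this list that did not pass, the log2 fold change was 0.20 for Itgax, 0.96 for Clec7a, -0.003 for Cst7, 0.10 for Spp1 and 0.02 for Axl. These 5 and Lyz2 were chosen after their values were seen.

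Interferon-responsive genes, which microglia and other cells switch on after virus sensing, were read from the same fit. Of 16 genes, 3 were higher (18.8%, against 2.77% of all genes) and 0 lower. All 16 had fold changes above 0, with a median of 0.575. The list summed to 246.1, 221.9 and 249.3 CPM in the GFP and 319.6, 271.5 and 503.7 CPM in the shRNA libraries, highest in the same replicate 3 that was highest for 33 members. DESeq2 called 7 of the 16, against 2.06% called higher of the 39024 genes it tested without a filter on low counts. Among the 10 without long matches 0 were called, against 0.633% of such genes called higher, and their median was 0.805. Groups did not overlap, with shRNA above GFP, for 6 of these 10 against 10.6% of such genes. Over the list this held for 8 of 16 against 9.84% of all genes. Cxcl10, Oasl2 and Rsad2 were the called genes, with edgeR adjusted p of 0.0123, 0.0218 and 0.0285. With 1 library left out, they passed in 3, 4 and 2 of 6 fits, and their highest adjusted p was 0.0737 without shRNA replicate 3, 0.110 without GFP replicate 3 and 0.124 without GFP replicate 3. Without GFP replicate 2 it was 0.0622, 0.0937 and 0.0993, and without GFP replicate 3 it was 0.0560 for Cxcl10. For Rsad2 it was also 0.121 without GFP replicate 1 and 0.0924 without shRNA replicate 1. The part of this list in the levels of the members was not tested.

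Ligands and partners of the microglial receptors showed 0 higher and 1 lower of 15 (6.67%, against 5.69% of all genes), with a median of 0.02. The lower one was Clu, a secreted chaperone of astrocytes and a TREM2 ligand, at -0.47 ± 0.11 (edgeR adjusted p = 0.0107), with 0.0647 without GFP replicate 2, 0.0703 without shRNA replicate 3 and 0.0511 in the fit of genes without long matches. Apoe, a lipid carrier that also binds TREM2, was at 1086.7 ± 128.5 CPM in the GFP and 894.8 ± 65.0 CPM in the shRNA libraries (SD, n = 3 each, edgeR adjusted p = 0.188). The neuronal ligand Cx3cl1 had 0.02 and the CSF1R ligands Il34 and Csf1 0.26 and 0.25 as log2 fold changes, and none of these 3, also chosen after their values were seen, passed.

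Some markers of T, NK and B cells were lower in the shRNA libraries. T and NK cell markers summed to 17.9, 17.9 and 37.1 CPM in the GFP and 8.77, 9.58 and 15.3 CPM in the shRNA libraries. GFP replicate 3, the highest library for Ptprc, was also the highest for this sum. Of 16, 4 were lower (25%, against 5.69% of all genes) and 0 higher, with a median of -1.14. Groups did not overlap, with shRNA below GFP, for 7 of 16 against 12.7% of all genes. Cd4 (-1.65), Cd3g (-1.79), Cd2 (-1.63) and Cd3d (-2.12) were the lower genes as log2 fold changes, of which Cd4 and Cd3g passed with any library left out. In the fit of genes without long matches, where 0.291% of genes were called lower, 1 of 14 was called, Cd4 (adjusted p = 0.0115), while Cd3g had 0.0585. Cd2 and Cd3d lost their calls without GFP replicate 3 (adjusted p = 0.148 and 0.381), shRNA replicate 1 (0.121 and 0.167) or shRNA replicate 2 (0.0682 and 0.194), and Cd3d also without shRNA replicate 3 (0.0786). B and plasma cell markers, led in level by the plasma cell gene Jchain, summed to 32.6, 147.0 and 141.6 against 7.59, 2.63 and 5.18 CPM. Of 8, 4 were lower (50%, against 5.69% of all genes) and 0 higher: Blk, Cd79a, Ms4a1 and Cd79b. The median was -3.65. Groups did not overlap, with shRNA below GFP, for all 8 against 12.7% of all genes. Blk and Cd79a passed with any library left out. In the fit of genes without long matches 1 of 6 was called, Blk (adjusted p = 0.0290), against 0.291% of genes called lower there. Ms4a1 was lost without shRNA replicate 1 (0.0647), and Cd79b without shRNA replicates 1, 2 and 3 in turn (0.0984, 0.169 and 0.0736).

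Monocyte markers summed to 202.3, 184.1 and 228.1 against 187.1, 145.6 and 188.3 CPM, most of it from Nr4a1, Fn1 and Vcan, which other cortical cells express. Of 12 monocyte markers 10 were tested, with 0 called, a median of -0.43 and 2 lower at an unadjusted p under 0.05. Those were Ly6c2, at 3.12, 9.27 and 18.2 against 1.23, 1.61 and 3.01 CPM, and the integrin Itgal, at 3.23, 5.66 and 10.9 against 1.90, 1.83 and 2.97 CPM. Both were highest in GFP replicate 3. DESeq2 called 1 of them, Ly6c2 (adjusted p = 0.0320). Their edgeR adjusted p was 0.232 and 0.0781, and without GFP replicate 1 it was 0.0137 and 0.00051. With any other library left out, neither passed. Neutrophil markers summed to 11.3 to 18.3 CPM in the GFP and 11.9 to 18.1 CPM in the shRNA libraries, mostly Csf3r, with Ly6g and Elane at 0 counts in every library and 0 of 6 called by edgeR or DESeq2 (0 unadjusted). S100a8 (-0.94) and Mmp9 (-0.34) had the smallest p of these. Border macrophage markers summed to 43.6 to 59.3 against 41.5 to 57.8 CPM, with 0 of 12 called by edgeR or DESeq2, 1 higher (Cd163) and 1 lower (Ms4a7) at an unadjusted p under 0.05 and a median of 0.445. Dendritic cell markers had 1 of 8 lower (12.5%, against 5.69% of all genes) and a median of -0.07. The lower gene was the cytokine receptor Flt3 (-0.86, edgeR adjusted p = 0.00323), which passed with any library left out. The other gene of small p in this list was the chemokine receptor Ccr7 (-1.87, edgeR adjusted p = 0.140), which DESeq2 called lower (0.00502). The part of these cells in the values of Ptprc, Cd53, Irf8 and the other shared members was not tested.

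**Figure D4:**
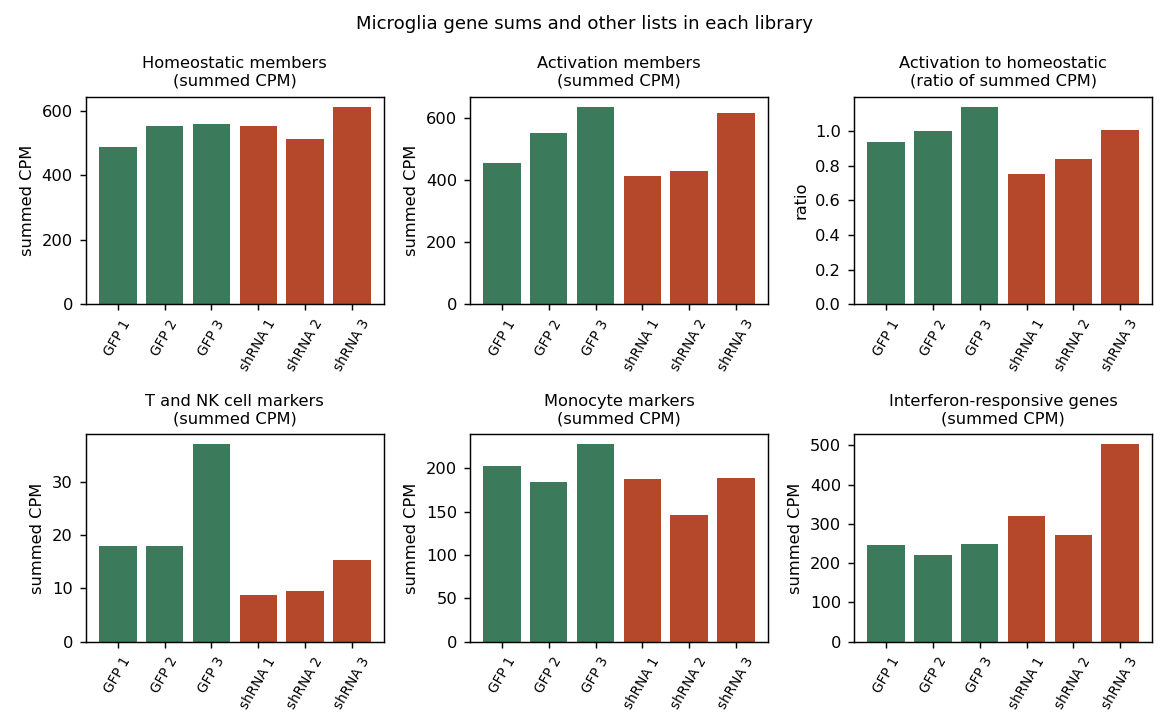
Summed CPM of homeostatic and activation members, their ratio, and the summed CPM of T and NK cell, monocyte and interferon-responsive lists, each as a bar per library from 0 (GFP green, shRNA red). The activation sum and the ratio are highest in replicate 3 of each group, the T and NK sum in GFP replicate 3 and the interferon sum in shRNA replicate 3.

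Neural and vascular markers frame the tissue. Neuron markers had 0 of 10 called by edgeR or DESeq2 (0 at an unadjusted p under 0.05) and a median of -0.08, with Nefl at -0.22 and Tubb3 at -0.21. Endothelial markers had 0 of 10 called by either tool (0 unadjusted) and a median of 0.03, with Ly6c1 at 0.25 and Cldn5 at 0.14. Astrocyte markers had 2 of 10 lower (20%, against 5.69% of all genes), Aqp4 (-0.64) and Gja1 (-0.51), and a median of -0.14. Aqp4 passed with any library left out. The Gja1 call was lost without GFP replicate 3 (adjusted p = 0.0533) or shRNA replicate 3 (0.0614). Oligodendrocyte markers had a median of -0.41, with 1 of 10 higher (10%, against 2.77% of all genes). This was the lineage factor Olig2 (0.54, edgeR adjusted p = 0.0211), while the myelin gene Mog had -0.73 (0.142) and was called lower by DESeq2 (0.00415). In the fit of genes without long matches Olig2 had 0.0875. Olig2 lost its call without GFP replicate 2 (0.0514), GFP replicate 3 (0.114) or shRNA replicate 3 (0.118).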

How the data were processed

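The members, the classes, the gene lists and the naming rule were chosen with earlier results of these data known. Deposited values were raw read counts per gene symbol, 1 file a library. Build mm10, featureCounts, STAR and DESeq2 are listed per the submitters' processing notes, while the labels' protocol names Cutadapt and TopHat2 with RefSeq mRNAs. Versions and strand setting are not given in the sources used here. The protocol describes stranded libraries depleted of ribosomal RNA.

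Groups and replicate numbers came from titles. Counts were filtered by filterByExpr, scaled by TMM and tested with edgeR 4.0.16 (R 4.3.3, robust quasi-likelihood fit, legacy=TRUE), Benjamini-Hochberg adjusted over all 24419 genes. SE is the absolute log2 fold change over the square root of F, and intervals are 95%. The fit was tested on simulated counts. DESeq2 1.42.0 was an alternative, run on all genes with any count and without independent filtering. Long matches were found with BLAST+ 2.17.0 among the longest GENCODE M21 transcripts of protein-coding genes and pseudogenes (90% identity, at least 100 nucleotides a match). Protein-coding genes without one of 200 nucleotides in sum, or 50% of their length, were fitted alone. Noncoding genes and pseudogenes were left out of that fit. In another fit, counts of intronless copies were added to their spliced parents. Exon lengths and coordinates are from GENCODE M21 (GRCm38). CPM in every library is given for called members, for 14 defining members and for the member of smallest p of each role. Outside that rule it is also given for Olfml3, with the largest fold change, and Ctss, with the highest mean CPM. Of other lists, called genes and up to 2 of smallest p were named by rule, and Kmt5b as the target.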

Additional observations from a re-analysis of the deposited data

How the results depend on the processing

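Fcrls passed in all 14 alternatives, with log2 fold changes from 0.57 to 0.80. Members called higher numbered 1 to 2 with a library left out, 2 without GFP replicate 3 (Fcrls and Olfml3), and 0 were lower in those fits. The replicate block gave 1 higher and 1 lower, Ptprc (adjusted p = 0.000218), with 704 higher and 1507 lower over all genes. Same-numbered libraries had correlations of deviations of -0.04, -0.07 and 0.34, or 0.39, -0.30 and 0.57 over the members, and not every library correlated best with its own number, so the numbers were not taken as pairs. With the block, the further microglia genes had 1 higher and 5 lower, the disease-associated genes 3 and 5, the interferon genes 6 and 0, T and NK markers 0 and 7, B and plasma markers 0 and 6 and monocyte markers 0 and 2. It called Ly6c2 (5.77e-05), Itgal (0.000877) and Cybb (0.000471) and lost Rsad2 (0.103). The median of the members ranged from -0.21 to 0.08, that of the homeostatic members from -0.06 to 0.12 and that of the activation members from -0.33 to 0.08. The homeostatic minus activation difference, 0.115 as reported, ranged from -0.06 to 0.29, with -0.06 without shRNA replicate 1. With total counts and no scaling factor the homeostatic median was -0.02. Over all genes, 676 were higher and 1390 lower, against 74 and 34 among protein-coding genes without long matches and 362 and 412 with copies added. The set without long matches also leaves out noncoding genes and pseudogenes, and the cause of these differences was not tested. Of 36 members, 23 changed sign in at least 1 alternative without being called. Precision is limited by 3 libraries a group: the 95% interval of the log2 fold change ran from -0.13 to 0.29 for P2ry12 and from -0.55 to 0.74 for Trem2.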

Other observations

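The proliferation list had 0 of 8 genes called by edgeR or DESeq2, 0 at an unadjusted p under 0.05 and a median log2 fold change of -0.54. Mki67, a nuclear protein of dividing cells, was at 6.74, 7.45 and 21.2 CPM in the GFP and 4.97, 6.24 and 7.58 CPM in the shRNA libraries. GFP replicate 3, the highest library for Ptprc and for T and NK cell markers, was thus also the highest for Mki67. Cybb, the catalytic chain of the phagocyte NADPH oxidase, was at 7.80, 12.1 and 19.9 against 4.52, 5.49 and 10.6 CPM (edgeR adjusted p = 0.459), and replicate 3 was the highest of each group. Aurkb, a mitotic kinase, had -0.65. Cybb was chosen after its values were seen.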
